A study of Mus musculus with 30 samples.

Results

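The genes that define the hormone-secreting cells of the gut lining were followed in 30 libraries of mouse colon. The 10 genes, *Chga*, *Chgb*, *Gcg*, *Pyy*, *Insl5*, *Sst*, *Tph1*, *Neurod1*, *Cck* and *Nts*, were picked by symbol from a count table of 46078 genes, and all 10 of them passed the filter on low counts that left 16261 genes for testing. The mice were C57BL/6J wild types, 5 to 10 weeks old at the start, in 6 groups of 5, with 1 mouse per library. Female and male mice received either saline (vehicle) or 1 intraperitoneal injection of azoxymethane (AOM, 10 mg/kg), a colon carcinogen, followed by 3 cycles of 2.5% dextran sodium sulfate (DSS) in the drinking water, which injures the colon lining. AOM/DSS-treated mice were killed at 9 or at 15 weeks, and vehicle-treated mice at 9 weeks only, so that at 15 weeks the effect of treatment and that of age cannot be told apart. Both treatment comparisons use the same 10 vehicle libraries. The tissue was the scraped epithelial layer, sequenced as poly-A RNA. Which stretch of the colon each scrape covered is not given in the sources used here.

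Enteroendocrine cells are scattered singly through the crypts of the intestine, where they sense nutrients and bacterial products at the luminal side and release peptides or serotonin at the other. In the colon the main kinds are L cells, which make glucagon-like peptides, peptide YY and insulin-like peptide 5, enterochromaffin cells, which make serotonin, and the sparser D cells, which make somatostatin. Cells that make cholecystokinin or neurotensin are best known from the small intestine. Because the scrape holds many cell types, fewer enteroendocrine cells and less RNA per cell cannot be told apart in these values.

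Of the granule proteins, *Chga* (ENSMUSG00000021194, chromosome 12 from 102554969 to 102565027 in GRCm38) and *Chgb* (ENSMUSG00000027350, chromosome 2 from 132781278 to 132795079) encode chromogranins A and B, which pack the dense secretory granules of endocrine cells. The L-cell peptides come from *Gcg* (ENSMUSG00000000394, chromosome 2 from 62474530 to 62483650), *Pyy* (ENSMUSG00000017311, chromosome 11 from 102106676 to 102107832) and *Insl5* (ENSMUSG00000066090, chromosome 4 from 103017872 to 103026842). *Tph1* (ENSMUSG00000040046, chromosome 7 from 46647130 to 46672537) encodes the enzyme that limits serotonin synthesis in the gut. *Sst* (ENSMUSG00000004366, chromosome 16 from 23889581 to 23890844), *Cck* (ENSMUSG00000032532, chromosome 9 from 121489825 to 121495689) and *Nts* (ENSMUSG00000019890, chromosome 10 from 102481760 to 102490418) encode the precursors of somatostatin, cholecystokinin and neurotensin. *Neurod1* (ENSMUSG00000034701, chromosome 2 from 79452521 to 79456751) encodes a basic helix-loop-helix transcription factor that is needed for several of these cell kinds and binds the E-box, a short motif written CANNTG.

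The promoters of 10 of the 10 genes were found in RefSeq on GRCm38.p6, 13 promoters in all, and 4 are shown because they belong to the genes on which the comparisons turn: *Chga*, the general granule gene, *Tph1*, whose level followed that of *Chga* closely, *Cck*, which rose after treatment, and *Sst*, which holds a cyclic AMP response element. Each line gives the 250 bases before the RefSeq start, 5′ to 3′ on the strand of the gene, with matches to CANNTG or TGACGTCA in capitals.
Chga (chr12:102554691-102554940, + strand): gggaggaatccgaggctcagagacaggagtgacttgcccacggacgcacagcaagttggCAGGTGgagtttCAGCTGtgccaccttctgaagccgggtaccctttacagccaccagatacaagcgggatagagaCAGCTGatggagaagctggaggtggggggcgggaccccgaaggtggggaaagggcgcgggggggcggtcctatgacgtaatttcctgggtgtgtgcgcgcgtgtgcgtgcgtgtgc
Tph1 (chr7:46672538-46672787, − strand): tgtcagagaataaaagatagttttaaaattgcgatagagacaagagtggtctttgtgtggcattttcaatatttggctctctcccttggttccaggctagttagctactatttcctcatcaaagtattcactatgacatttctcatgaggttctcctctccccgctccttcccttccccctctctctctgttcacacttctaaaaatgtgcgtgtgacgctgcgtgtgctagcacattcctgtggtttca
Cck (chr9:121495695-121495944, − strand): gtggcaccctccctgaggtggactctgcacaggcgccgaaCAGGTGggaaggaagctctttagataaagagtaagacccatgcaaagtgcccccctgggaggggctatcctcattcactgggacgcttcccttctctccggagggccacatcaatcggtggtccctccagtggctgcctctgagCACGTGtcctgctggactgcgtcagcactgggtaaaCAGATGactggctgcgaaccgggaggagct
Sst (chr16:23890845-23891094, − strand): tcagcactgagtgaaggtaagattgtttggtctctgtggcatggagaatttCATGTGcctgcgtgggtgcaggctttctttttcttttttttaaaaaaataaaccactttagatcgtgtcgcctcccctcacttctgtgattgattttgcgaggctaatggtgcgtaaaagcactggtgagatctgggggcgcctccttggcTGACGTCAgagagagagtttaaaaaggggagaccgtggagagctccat
In *Chga* the 3 E-boxes begin 191, 179 and 116 bases before the start, and in *Cck* they begin 210, 66 and 30 bases before it. The *Sst* stretch has an E-box 199 bases and the response element 48 bases before the start. No E-box lies in this *Tph1* stretch, while the promoter of a second *Tph1* start has 1 beginning 5 bases before it. Both motifs read the same on either strand, and the 2 do not overlap here. Over windows of 300 bases, from 250 before to 50 after the start, 12 of the 13 promoters of these genes hold an E-box, against 72.3% of all 32851 RefSeq promoters. The response element is in 2 of the 13, those of *Sst* and of *Chgb* (72 bases before the start), and in 1.79% of all promoters. These matches describe the letters only.

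The libraries held 9265804 to 30806392 reads counted on genes, with a median of 24697064.5, and the shallowest was female vehicle replicate 5. Levels are given as CPM, a gene's counts as a share of the library scaled by the TMM method between libraries, and as TPM, a share of transcripts after division by gene length, where genes are compared within a library. TPM was not compared between libraries, because the mitochondrial gene *mt-Nd4l* alone took 39.2% to 58.1% of it. A sum over smooth muscle genes, given further on, is the exception.

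Per length, the L-cell peptides and the chromogranins stood at the top and *Cck* and *Neurod1* at the bottom. The median TPM over the 30 libraries was 41.0 for *Pyy*, 34.0 for *Insl5*, 27.9 for *Chgb*, 24.6 for *Gcg* and 23.1 for *Chga*. It was 5.71 for *Tph1*, 3.77 for *Nts*, 1.86 for *Sst*, 0.924 for *Cck* and 0.502 for *Neurod1*. In this order only 2 neighbours differed beyond the spread between libraries. *Chga* was above *Tph1* in 30 of 30 libraries (mean log2 ratio of TPM 2.02, SD 0.379), and *Sst* was above *Cck* in 27 of 30 (1.01, SD 0.9995). The gene with the highest TPM of the 10 was *Pyy* in 14 libraries, *Insl5* in 9, *Chgb* in 6 and *Gcg* in 1, so the order within the upper 5 changed from mouse to mouse.

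The genes differed widely in how much they varied between mice, as the plot of CPM by library shows. From the lowest to the highest library *Pyy* ranged 3.09-fold, *Neurod1* 5.80-fold and *Sst* 6.68-fold. *Cck* ranged 11.7-fold, *Chgb* and *Gcg* 11.9-fold each, *Chga* 12.9-fold and *Tph1* 18.0-fold. The widest ranges were those of *Insl5*, 50.2-fold from 2.31 to 116.1 CPM, and of *Nts*, which ran from 0 to 132.5 CPM. The 0 counts of *Nts* in male vehicle replicate 5 allow a level of up to 0.112 CPM (3 counts), for counting error only.

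**Figure D1:**
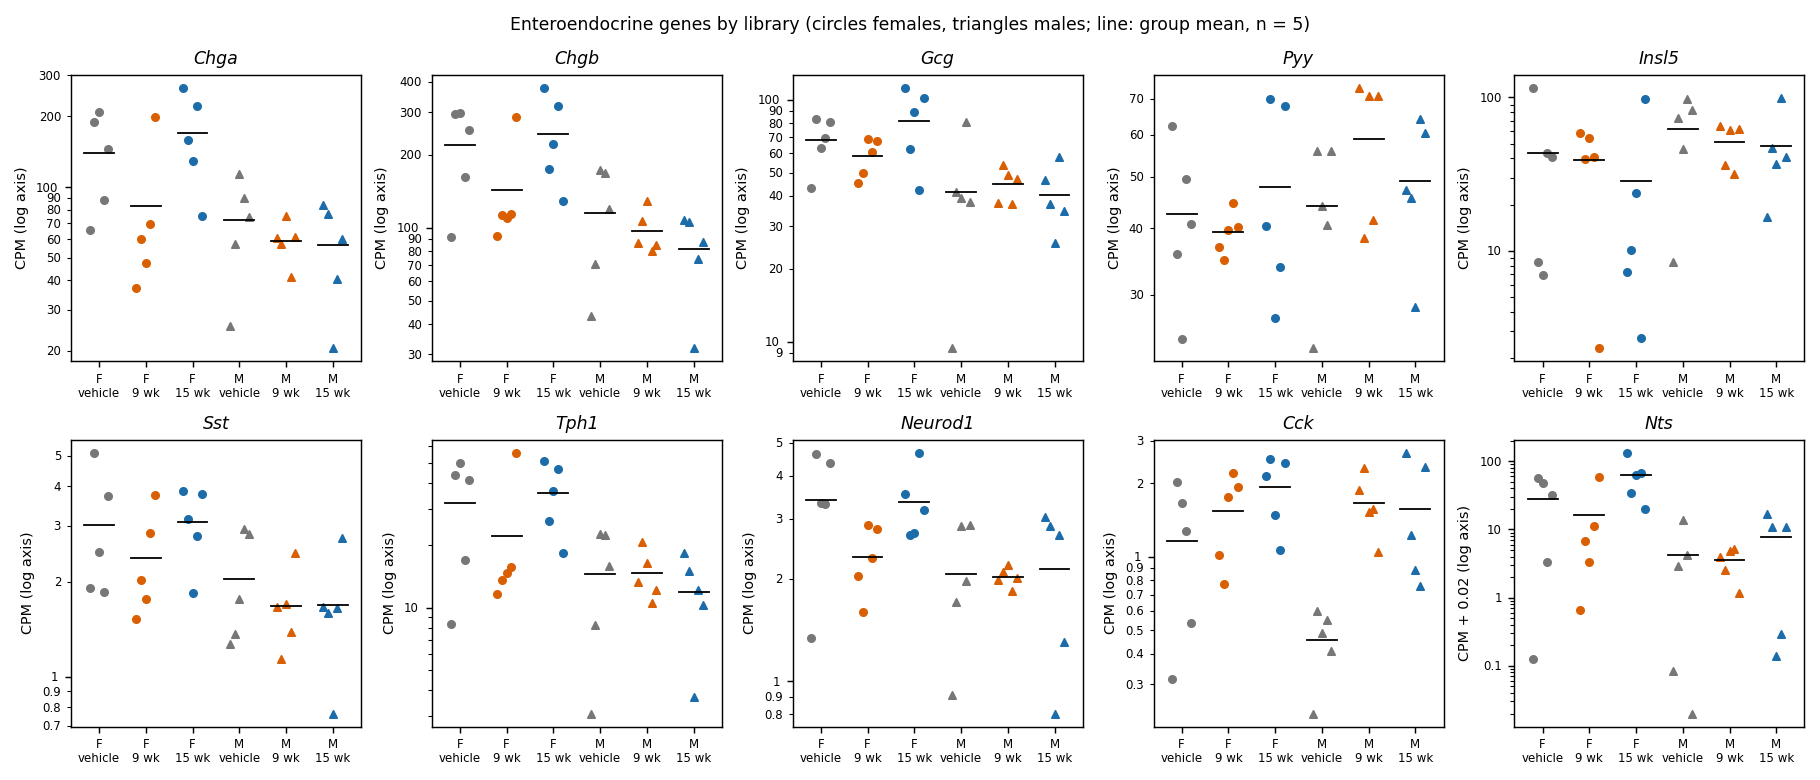
CPM of the 10 genes in each of the 30 libraries (log axes; circles are females, triangles males; the line is the mean of 5 libraries; 0.02 was added to *Nts* so that a value of 0 could be drawn). *Pyy* stayed between 23.8 and 73.5 CPM in every group, *Cck* was lowest in vehicle-treated males, and *Nts* and *Insl5* were spread over the widest ranges.

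To find out which of these genes responded to AOM/DSS, the treated groups were compared with vehicle over both sexes in edgeR's quasi-likelihood model. A gene was called a DEG at a Benjamini-Hochberg adjusted p under 0.05, a log2 fold change beyond 0.4 in either direction and a mean FPKM of at least 1 in 1 of the compared arms. After 9 weeks *Cck* was the 1 DEG of the 10 genes, and it rose 2.17-fold (log2 fold change 1.12, SE 0.31, adjusted p = 0.0114, edgeR). Over all tested genes 8.29% were DEGs in this comparison. The other 9 genes had adjusted p-values from 0.271 upwards, and 8 of the 10 log2 fold changes were below 0, with a median of −0.27 against −0.02 over all tested genes.

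Among the 9 genes that were not called after 9 weeks, the chromogranins had log2 fold changes of −0.52 (SE 0.31, *Chga*) and −0.43 (SE 0.27, *Chgb*), and *Tph1* had −0.25 (SE 0.35). For the L-cell peptides the values were −0.06 (SE 0.23) for *Gcg*, 0.15 (SE 0.19) for *Pyy* and −0.20 (SE 0.56) for *Insl5*. *Sst* had −0.31 (SE 0.24), *Neurod1* −0.28 (SE 0.24) and *Nts* −0.52 (SE 0.81). The 95% intervals show what the data could resolve: that of *Pyy* ran from −0.24 to 0.55, that of *Chga* from −1.15 to 0.11, and that of *Nts* from −2.18 to 1.13. *Chga* depended on 1 library. Without female 9-week replicate 5, in which *Chga* stood at 199.6 CPM against 37.0 to 69.8 CPM in the other 4 libraries of its group, its log2 fold change was −0.84 and it became a DEG (adjusted p = 0.0319, edgeR). With the posterior Hox score described further on as a covariate it was also a DEG (−0.69, adjusted p = 0.0224, edgeR).

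**Figure D2:**
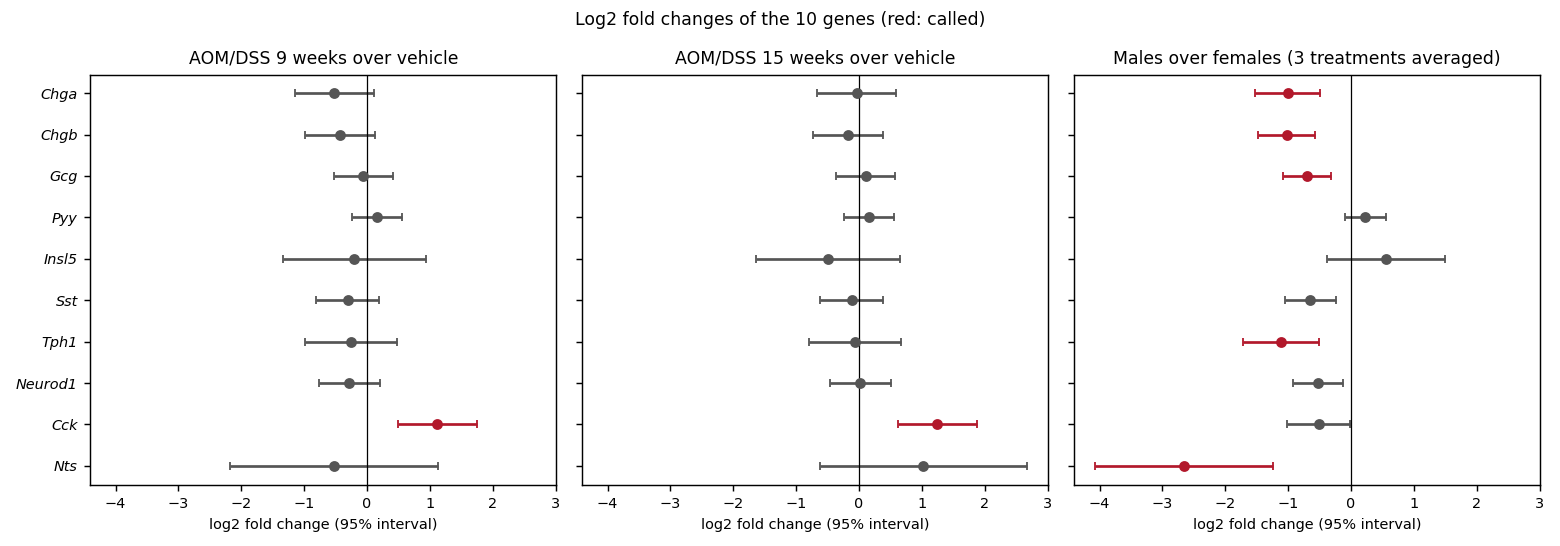
Log2 fold changes of the 10 genes with 95% intervals from edgeR, for AOM/DSS at 9 and at 15 weeks over vehicle (both averaged over the sexes) and for males over females (averaged over the 3 treatments). Points in red are DEGs: *Cck* in both treatment comparisons (1.12 and 1.24), and *Chga*, *Chgb*, *Gcg*, *Tph1* and *Nts* in the comparison of the sexes, all below 0.

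After 15 weeks *Cck* was again the 1 DEG, 2.37-fold above vehicle (log2 fold change 1.24, SE 0.31, adjusted p = 0.00873, edgeR), where 7.35% of all tested genes were DEGs. The median log2 fold change of the 10 genes was −0.01 and that of all tested genes −0.03, and 5 of the 10 were above 0 and 5 below. *Chga*, *Chgb* and *Tph1* had −0.03 (SE 0.31), −0.17 (SE 0.27) and −0.06 (SE 0.35). *Gcg* had 0.10 (SE 0.23), *Pyy* 0.16 (SE 0.19) and *Insl5* −0.49 (SE 0.56). *Sst* had −0.12 (SE 0.24) and *Neurod1* 0.02 (SE 0.24). *Nts* had the widest interval, from −0.63 to 2.67 around 1.02 (SE 0.80).

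Between 15 and 9 weeks of AOM/DSS none of the 10 genes was a DEG, while 2.32% of all tested genes were. At an unadjusted p under 0.05 edgeR also gave 0 of them, against 3846 of all 16261 tested genes, and DESeq2 and limma voom called 0. The values ran from −0.28 (SE 0.56) for *Insl5* to 1.55 (SE 0.82, adjusted p = 0.247, edgeR) for *Nts*. *Cck* had 0.12 (SE 0.30), with a 95% interval from −0.48 to 0.73, and *Pyy* 0.0088 (SE 0.19). The values of *Gcg* and *Tph1* were 0.16 (SE 0.23) and 0.19 (SE 0.36), and those of *Chgb*, *Sst* and *Neurod1* were 0.26 (SE 0.27), 0.19 (SE 0.24) and 0.30 (SE 0.24). These intervals all included 0. For *Chga*, with 0.48 (SE 0.31, adjusted p = 0.337, edgeR), the same female library decided the call, since without female 9-week replicate 5 the value was 0.82 (adjusted p = 0.0445, edgeR).

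*Cck* encodes the precursor of cholecystokinin, which makes the gall bladder contract and slows gastric emptying. It was rare in these libraries, with 5 to 68 counts each, so that counting error adds to its spread. In vehicle-treated males it was measured at 0.228, 0.599, 0.487, 0.553 and 0.411 CPM in replicates 1 to 5. In males after 9 weeks the 5 libraries had 1.88, 2.31, 1.53, 1.57 and 1.04 CPM. After 15 weeks they had 2.67, 1.22, 0.886, 0.758 and 2.33 CPM. Every treated male library at either time thus lay above every vehicle-treated male library. The share of all tested genes that separate in this way is not given here, so the separation is not shown to be particular to *Cck*.

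In females the groups overlapped. Vehicle-treated females had 0.317, 2.03, 1.67, 1.28 and 0.533 CPM of *Cck*, females after 9 weeks 1.01, 0.775, 1.76, 2.21 and 1.94 CPM, and females after 15 weeks 2.16, 2.52, 1.49, 1.07 and 2.43 CPM. Of the vehicle-treated females, replicates 1 and 5 were low like the males, and replicates 2 to 4 were at the level of treated mice. The group means were 1.17 ± 0.729, 1.54 ± 0.615 and 1.93 ± 0.630 CPM in females and 0.455 ± 0.146, 1.67 ± 0.470 and 1.57 ± 0.871 CPM in males (SD, n = 5), with vehicle, 9 weeks and 15 weeks in that order.

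In males alone *Cck* was the 1 DEG of the 10 at both times, 3.64-fold higher after 9 weeks (log2 fold change 1.86, SE 0.44, adjusted p = 0.00783, edgeR), where 7.31% of all genes were DEGs, and 3.45-fold higher after 15 weeks (1.79, SE 0.44, adjusted p = 0.010, edgeR), where 8.92% were. In females none of the 10 was a DEG at either time, against 2.90% of all genes after 9 weeks and 0.0984% after 15 weeks. Neither DESeq2 nor limma voom called any of them in females, and at an unadjusted p under 0.05 edgeR gave 0 at both times. Over all 16261 tested genes edgeR gave 2796 and 1776 at that threshold. Without female 9-week replicate 5, *Chga* became a DEG in females after 9 weeks, with a log2 fold change of −1.39 (adjusted p = 0.0329, edgeR). The female values of *Cck* were 0.38 (95% interval −0.49 to 1.25) after 9 weeks and 0.70 (−0.16 to 1.57) after 15 weeks.

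The difference between the male and the female change was tested as an interaction. For *Cck* it was 1.49 after 9 weeks (95% interval 0.24 to 2.73, adjusted p = 0.641, edgeR) and 1.08 after 15 weeks (−0.16 to 2.33, adjusted p = 0.705, edgeR). None of the 10 genes passed at 9 weeks, nor did any gene of the whole table (0%), and the same held at 15 weeks (0%). At an unadjusted p under 0.05 edgeR gave 1 of the 10 genes at 9 weeks, *Cck*, and 0 at 15 weeks, and neither DESeq2 nor limma voom called any. Over all 16261 tested genes edgeR gave 1205 and 1245 at that threshold. A sex difference in the *Cck* response was therefore not shown.

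**Figure D3:**
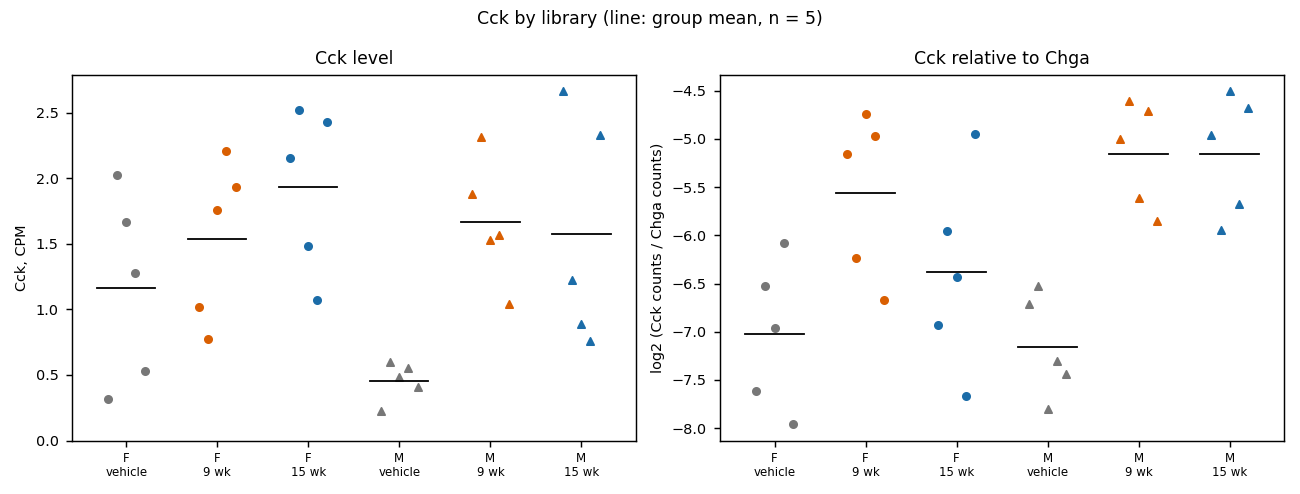
*Cck* in each library as CPM (left, axis from 0) and as the log2 ratio of *Cck* to *Chga* counts with 0.5 added to each (right); circles are females, triangles males and the line is the mean of 5 libraries. All 10 treated male libraries lie above the 5 vehicle-treated male libraries in CPM, whose highest value is 0.599, while the female groups overlap. How many other genes separate in this way is not given.

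The call of *Cck* was kept in 20 of 20 fits that left out 1 library, after 9 weeks (log2 fold change 0.99 to 1.27) and after 15 weeks (1.12 to 1.39). With the posterior Hox score as a covariate it was a DEG after 9 weeks (1.06, adjusted p = 0.00182, edgeR) and not after 15 weeks (0.62, adjusted p = 0.230, edgeR). In males after 15 weeks it was not a DEG with that covariate (1.01, adjusted p = 0.134, edgeR) or when only the compared libraries entered the fit (1.80, adjusted p = 0.0665, edgeR). *Cck* is also made by neurons. Of 8 tested marker genes of enteric neurons 0 were DEGs after 9 weeks and 1, *Snap25*, was lower after 15 weeks. Of all tested genes 8.29% and 7.35% were DEGs at these times. At an unadjusted p under 0.05 edgeR gave 2 of the 8 after 9 weeks, and 4720 of all 16261 tested genes. *Ret*, another gene of that list, named after its values were seen, was higher after 9 weeks (log2 fold change 1.72, SE 0.32, adjusted p = 0.000355, edgeR) but stayed under the FPKM floor. The mean log2 CPM of the 8 genes ran from −1.37 to −0.12 in vehicle-treated females, from −0.93 to 0.22 after 9 weeks and from −1.29 to −0.35 after 15 weeks, and in males from −0.54 to 1.24, −0.90 to −0.24 and −1.14 to 0.064. No gene of that list was at 0 in all libraries, and its part in the *Cck* result was not tested.

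To compare each gene with *Chga*, its counts were divided by those of *Chga* in the same library, which cancels library size. The ratio still holds the lengths of both genes, which drop out of a difference between groups, and a change in it includes that of *Chga* itself, whose own log2 fold change was −0.52 after 9 weeks. The mean log2 ratio of *Cck* to *Chga* was −7.09 with vehicle, −5.36 after 9 weeks and −5.77 after 15 weeks. The rise after 9 weeks was 1.74 (exact permutation within sex, two-sided p = 0.000158, adjusted p = 0.00425 over 27 tests). After 15 weeks it was 1.32 (exact permutation p = 0.00321, adjusted p = 0.0434). Relative to *Chgb* in place of *Chga* the rises were 1.57 and 1.42 (exact permutation, adjusted p = 0.00378 and 0.0283). Of 20 repeats that left out 1 of the compared libraries the 9-week rise passed in 20, with values from 1.62 to 1.88. The 15-week rise passed in 5 of 20, with values from 1.14 to 1.48 and adjusted p up to 0.110 without female 15-week replicate 5 (exact permutation). Left out singly, the other libraries that ended the 15-week call were vehicle replicates 1, 3 and 5 of the females, all 5 vehicle replicates of the males, 15-week replicates 2 and 3 of the females and 15-week replicates 1, 3, 4 and 5 of the males.

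None of the other 8 genes changed relative to *Chga* after adjustment in any of the 3 comparisons. The nearest in the 9-week comparison were *Tph1*, up by 0.41 (exact permutation p = 0.0190, adjusted p = 0.171), and *Gcg*, up by 0.61 (exact permutation p = 0.0302, adjusted p = 0.173). Without female 9-week replicate 5 the *Gcg* ratio passed, at 0.78 (exact permutation, adjusted p = 0.0315). *Pyy* had 0.71 (exact permutation, adjusted p = 0.250) and *Chgb* 0.17 (exact permutation, adjusted p = 0.410). The mean ratio of *Chgb* to *Chga* stayed within 0.56 to 0.83 on the log2 scale over vehicle, 9 weeks and 15 weeks.

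The sexes were then compared within each treatment. None of the 10 genes was a DEG between vehicle-treated males and females, where 0.178% of all genes were, after 9 weeks (0.0492%) or after 15 weeks (0.184%). By edgeR at an unadjusted p under 0.05 the counts were 7, 1 and 6 of the 10 genes. Over all 16261 tested genes they were 3035, 630 and 2009. Of the 10, limma voom called 0 in each, and DESeq2 called 0, 0 and 2. The 2 genes called by DESeq2 after 15 weeks were *Chga* and *Chgb*, for which edgeR gave log2 fold changes of −1.59 (SE 0.44, adjusted p = 0.108) and −1.59 (SE 0.39, adjusted p = 0.0682). Single libraries decided some of these counts. In vehicle-treated mice *Cck* (−1.37, SE 0.44, adjusted p = 0.0974, edgeR) became a DEG without female vehicle replicate 1 (−1.62, adjusted p = 0.0163) and *Gcg* without male vehicle replicate 4 (−1.09, adjusted p = 0.0472). After 15 weeks *Chgb* became a DEG without female 15-week replicate 5 (−1.75, adjusted p = 0.0394, edgeR).

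Averaged over the 3 treatments, a comparison added after the data had been seen, 5 of the 10 genes were lower in males, against 3.31% of all tested genes that were DEGs in either direction and 2.04% that were lower in males. DESeq2 called 6 of the 10 and limma voom 4 (their shares over all genes are not given here). Females had 37.0 to 265.6 CPM of *Chga* (median 129.7, n = 15), and males 20.5 to 113.1 CPM (median 60.8, n = 15). It was 2.01-fold lower in males (log2 fold change −1.01, SE 0.25, adjusted p = 0.020, edgeR). The sexes overlapped in *Chga*, and 2 male libraries lay below the lowest female. The females had 91.5 to 378.4 CPM of *Chgb* (median 175.0), and the males 31.8 to 173.2 CPM (median 87.3). It was 2.04-fold lower in males (−1.03, SE 0.22, adjusted p = 0.0107, edgeR), and 8 of the 15 male libraries lay below the lowest female.

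*Tph1* and *Nts* were also lower in males. For *Tph1* the females had 8.38 to 55.6 CPM (median 26.2) and the males 3.09 to 22.6 (median 13.3), a 2.16-fold difference (log2 fold change −1.11, SE 0.29, adjusted p = 0.0258, edgeR). *Nts* encodes neurotensin, which slows gut movement and promotes fat uptake. It was at 0.106 to 132.5 CPM in females (median 32.2) and at 0 to 16.6 in males (median 3.97), 6.30-fold lower in males with a 95% interval of the log2 fold change from −4.07 to −1.24 (−2.66, SE 0.69, adjusted p = 0.0238, edgeR). *Gcg*, the precursor of glucagon-like peptides, had 42.4 to 112.2 CPM in females (median 67.6) and 9.40 to 81.0 in males (median 39.1), 1.62-fold lower in males (−0.70, SE 0.19, adjusted p = 0.0283, edgeR).

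The remaining L-cell peptides did not pass. *Pyy* had a log2 fold change of 0.22 (SE 0.16, adjusted p = 0.433, edgeR) and *Insl5* of 0.55 (SE 0.46, adjusted p = 0.519, edgeR), both on the male side. *Sst* (−0.65, adjusted p = 0.0504), *Neurod1* (−0.52, adjusted p = 0.0981) and *Cck* (−0.52, adjusted p = 0.207, all by edgeR) had values on the female side. Without 1 library *Neurod1* had values from −0.59 to −0.45, with adjusted p as low as 0.027 (edgeR). It was called in 0 of 30 such fits, because at that adjusted p its mean FPKM was under 1 in both arms. The direction held in each treatment for the 5 genes that passed: *Chga* had −0.95 with vehicle, −0.49 after 9 weeks and −1.59 after 15 weeks, and *Nts* had −2.74, −2.20 and −3.03. These 5 were picked by the average of the same 3 comparisons, so the shared direction is no separate support. Of all 10 genes, 8, 7 and 8 were below 0 in them.

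Markers of other tissue layers also differed between the sexes. Averaged over treatments, 5 of 10 smooth muscle genes, 1 of 14 mesenchyme genes, 1 of 6 posterior Hox genes, 1 of 9 neutrophil and 1 of 10 colonocyte genes were DEGs higher in males (edgeR; 1.27% of all tested genes were), and 1 each of the tuft, goblet and mast cell genes was lower. The mesenchyme score, the mean log2 CPM of 14 genes, had a median of 2.21 in females and 3.52 in males, and the posterior Hox score, the mean log2 CPM of 6 genes, had 0.03 in females and 2.45 in males. By group the mesenchyme medians were 1.74, 4.17 and 2.11 in females and 3.92, 4.10 and 2.54 in males (vehicle, 9 weeks, 15 weeks). The sexes thus lay farthest apart with vehicle. In summed TPM the smooth muscle genes reached 2099 in the highest vehicle-treated male library, where the group median was 30.8. After 9 and 15 weeks the medians of this sum were 27.9 and 12.8 in females and 21.8 and 11.3 in males. When the mesenchyme score entered the fit, no gene of the 10 was a DEG between the sexes, and *Chga* had −0.57 (adjusted p = 0.40, edgeR), *Chgb* −0.65 (adjusted p = 0.231) and *Nts* −1.17 (adjusted p = 0.623). With the posterior Hox score none was a DEG either, at −0.45 (adjusted p = 0.308, edgeR), −0.60 (adjusted p = 0.186) and −1.04 (adjusted p = 0.349). The share of all tested genes called in these fits is not given here, so the loss is not shown to be particular to the 10 genes. Of the fits without 1 library, *Chga* and *Chgb* were DEGs in 30 of 30, *Nts* in 29, *Tph1* in 27 and *Gcg* in 26. Without female 9-week replicate 5 only *Chga* and *Chgb* were left, with *Nts* at −2.13 (adjusted p = 0.0630, edgeR), and *Gcg* and *Tph1* were both lost without female vehicle replicate 2 as well. *Gcg* was further lost without female vehicle replicate 5 or female 15-week replicate 1, and *Tph1* without female vehicle replicate 3, at adjusted p-values of at most 0.0613 (edgeR).

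*Insl5* and *Nts* varied in opposite directions between mice. *Insl5*, made by L cells and acting on appetite, had 116.1, 8.48, 6.92, 43.5 and 41.2 CPM in vehicle-treated females, where *Nts* had 0.106, 56.7, 48.1, 3.36 and 32.2 CPM. In replicates 2 and 3, which were lowest in *Insl5*, *Nts* was highest. In females after 9 weeks *Insl5* had 58.8, 39.7, 54.8, 41.1 and 2.31 CPM and *Nts* 0.634, 6.85, 3.27, 11.1 and 59.5 CPM, so that replicate 5 alone held the opposite balance to its group. In females after 15 weeks *Insl5* had 7.24, 10.1, 23.8, 2.68 and 98.2 CPM and *Nts* 132.5, 34.0, 62.9, 66.7 and 19.7 CPM.

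In males *Insl5* had more counts than *Nts* in 14 of 15 libraries. Vehicle-treated males had 8.49, 73.6, 46.5, 98.3 and 83.3 CPM of *Insl5* and 0.0651, 2.91, 13.9, 4.15 and 0 CPM of *Nts*. After 9 weeks the males had 31.8 to 65.4 CPM of *Insl5* and 1.15 to 5.13 CPM of *Nts*, and after 15 weeks 16.6 to 98.9 and 0.121 to 16.6 CPM. By counts *Insl5* exceeded *Nts* in 22 of the 30 libraries, *Nts* exceeded *Insl5* in 7, all of them from females, and 1 male library had equal counts. In females after 15 weeks *Nts* was the higher in 4 of 5 libraries. These counts were not divided by gene length, so the order of the 2 genes by TPM may differ. Over the libraries with the mean of each group taken away, log2 CPM of *Insl5* and *Nts* had a Pearson r of −0.442 (permutation p = 0.0272, adjusted p = 0.0493) and a Spearman rho of −0.504 (permutation p = 0.0114, adjusted p = 0.0319), and r was −0.532 without the 2 libraries farthest from the median of *Insl5*.

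Between mice of the same group several of the genes varied together. All 45 pairs were compared over the 30 libraries on log2 CPM with the group means taken away, by permutation of libraries within groups, with p adjusted over the 45 pairs. Of these, 35 had r above 0, and 23 positive and 2 negative pairs had an adjusted p under 0.05. Shares over pairs of other tested genes are not given here, so this co-variation is not shown to be particular to these genes. The points of a pair share their library and its scaling. *Chgb* and *Tph1* had the highest r, 0.973 (Spearman rho 0.968, and 0.964 for r without the 2 farthest libraries). *Chga* and *Chgb* had r 0.949 (rho 0.937, without 2 libraries 0.934), and *Chga* and *Tph1* had r 0.926 (rho 0.895, without 2 libraries 0.898). For these 3 pairs the permutation p was 1e-05 for both measures, the smallest that 100000 permutations can give, and the adjusted p was 0.00015.

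*Nts* and *Neurod1* followed the same genes. *Nts* and *Chga* had r 0.792 (permutation p = 2e-05, adjusted p = 0.000225) and rho 0.814 (permutation p = 2e-05, adjusted p = 0.000225), and r was 0.768 without the 2 farthest libraries. *Neurod1* and *Tph1* had r 0.797 (permutation p = 6e-05, adjusted p = 0.00045) and rho 0.740 (permutation p = 7e-05, adjusted p = 0.0006), with 0.691 without 2 libraries. *Cck* was nearest to *Nts*, at r 0.616 (permutation p = 0.00372, adjusted p = 0.0129) and rho 0.547 (permutation p = 0.00997, adjusted p = 0.0299), with 0.546 without 2 libraries.

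The L-cell peptides did not move as 1 block. *Pyy* and *Insl5* had r 0.530 (permutation p = 0.00424, adjusted p = 0.0136) and rho 0.518 (permutation p = 0.00743, adjusted p = 0.0239), with 0.485 without the 2 farthest libraries. *Pyy* and *Chga* had r 0.06 (permutation p = 0.774, adjusted p = 0.810) and rho −0.04 (permutation p = 0.862, adjusted p = 0.881), with −0.103 without 2 libraries. With *Chgb* and with *Tph1* the r of *Pyy* was −0.04 each, but −0.43 and −0.45 without 2 libraries. *Insl5* and *Chga* had r −0.494 (permutation p = 0.0216, adjusted p = 0.0486) and rho −0.497 (permutation p = 0.0147, adjusted p = 0.0383), with −0.623 without 2 libraries. *Gcg* lay between, at r 0.623 with *Tph1* (permutation p = 0.00233, adjusted p = 0.00953; rho 0.529, permutation p = 0.00684, adjusted p = 0.0239; 0.456 without 2 libraries).

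**Figure D4:**
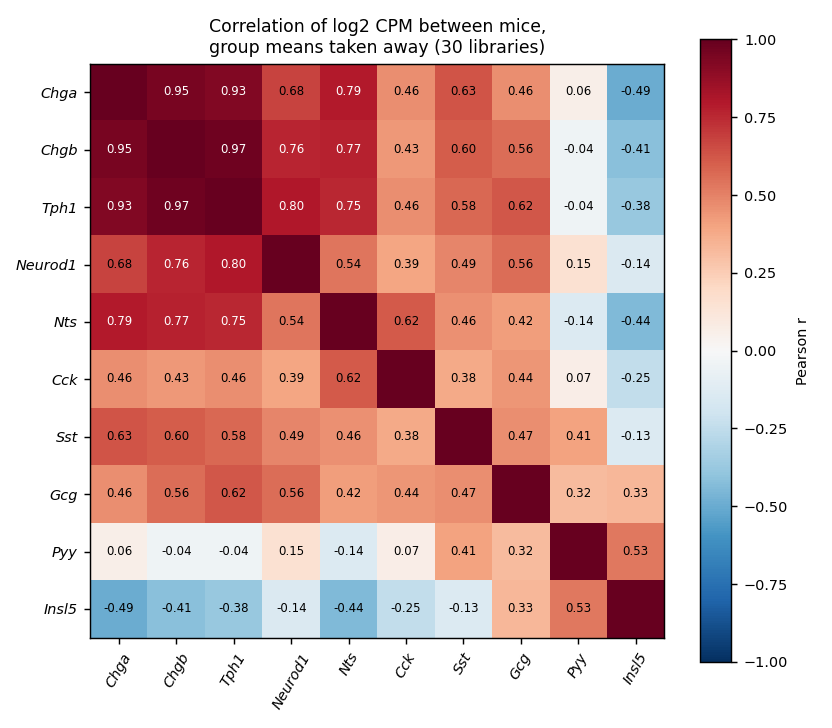
Pearson r of log2 CPM for each pair of the 10 genes over 30 libraries after the mean of each group was taken away (red positive, blue negative). *Chga*, *Chgb* and *Tph1* form the block of highest values, from 0.93 to 0.97, while *Insl5* is negative with 7 of the 9 other genes and *Pyy* has values from −0.14 to 0.15 with 6 of them.

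The genes most like *Chga*, *Pyy* and *Tph1* among all other tested genes were sought by the same centred correlation over the 30 libraries. For *Chga* they were *2610528A11Rik* (r 0.909), *Tmem171* (0.896) and *Ces2b* (0.883). For *Tph1* they were *Ugt2b36* (0.891), *Prlr* (0.881) and *Dfna5* (0.867), and for *Pyy* they were *Mrpl57* (0.757), *Ppy* (0.754) and *Traf2* (0.751). *Ppy* encodes pancreatic polypeptide, the paralogue of peptide YY, and lies beside *Pyy* in the genome. These values are a description, with no test.

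Posterior Hox genes are known to be more active towards the far end of the gut, and their level was set beside the 10 genes, a relation chosen after the data had been seen and 1 of 50 (10 genes by 5 marker scores) over which p was adjusted. With group means taken away, *Nts* and the posterior Hox score had r −0.833 (permutation p = 2e-05, adjusted p = 0.00075) and rho −0.863 (permutation p = 1e-05, adjusted p = 0.0005), with −0.789 without the 2 farthest libraries. *Chga* had r −0.733 (permutation p = 3e-05, adjusted p = 0.00075) and rho −0.713 (permutation p = 7e-05, adjusted p = 0.00175), with −0.654 without 2 libraries. *Cck* had r −0.731 (permutation p = 0.00013, adjusted p = 0.00217) and rho −0.697 (permutation p = 0.00066, adjusted p = 0.0110), with −0.653 without 2 libraries. High *Nts*, *Chga* and *Cck* thus went with low Hox values among mice of the same group. Shares of other tested genes that follow the score are not given here. Relations with it are therefore not shown to be particular to the 10 genes.

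*Chgb* had r −0.669 with the same score (permutation p = 0.00029, adjusted p = 0.00362) and rho −0.598 (permutation p = 0.00155, adjusted p = 0.0194), with −0.545 without 2 libraries. *Tph1* had r −0.668 (permutation p = 0.00101, adjusted p = 0.0101) and rho −0.598 (permutation p = 0.00311, adjusted p = 0.0311), with −0.526 without 2 libraries. *Insl5* had a value of the other sign, r 0.417 (permutation p = 0.0400, adjusted p = 0.0952) and rho 0.468 (permutation p = 0.0158, adjusted p = 0.0795), which did not pass. *Pyy* had r −0.02 (permutation p = 0.902, adjusted p = 0.935) and rho 0.02 (permutation p = 0.915, adjusted p = 0.933). The other relation with adjusted p under 0.05 for r was that of *Tph1* with the enteric neuron score (r −0.600, permutation p = 0.00456, adjusted p = 0.0380; rho −0.536, permutation p = 0.00780, adjusted p = 0.0557; −0.574 without 2 libraries).

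The Hox score also differed between groups. Its median was 1.89, 2.36 and −0.65 in females and 2.45, 2.64 and 0.90 in males, with vehicle, 9 weeks and 15 weeks in that order. After 15 weeks 3 of the 6 genes, *Hoxd10*, *Hoxd11* and *Hoxd13*, named after their values were seen, were lower than with vehicle (edgeR, adjusted p from 0.0116 to 0.0129), and after 9 weeks 0 of 6 were DEGs (2 at an unadjusted p under 0.05). Over all tested genes 3.89% were lower DEGs after 15 weeks, and 4720 of 16261 had an unadjusted p under 0.05 after 9 weeks (edgeR). Female 9-week replicate 5, with the highest *Chga*, *Chgb*, *Tph1* and *Nts* and the lowest *Insl5* of its group, had a Hox score of −0.95 against a group median of 2.36. Male vehicle replicate 1, with the lowest *Chga*, *Chgb*, *Gcg*, *Tph1* and *Insl5* of its group, had the highest Hox and mesenchyme scores of all libraries, 6.13 and 6.56. Whether the scrapes covered different stretches of the colon was not tested.

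**Figure D5:**
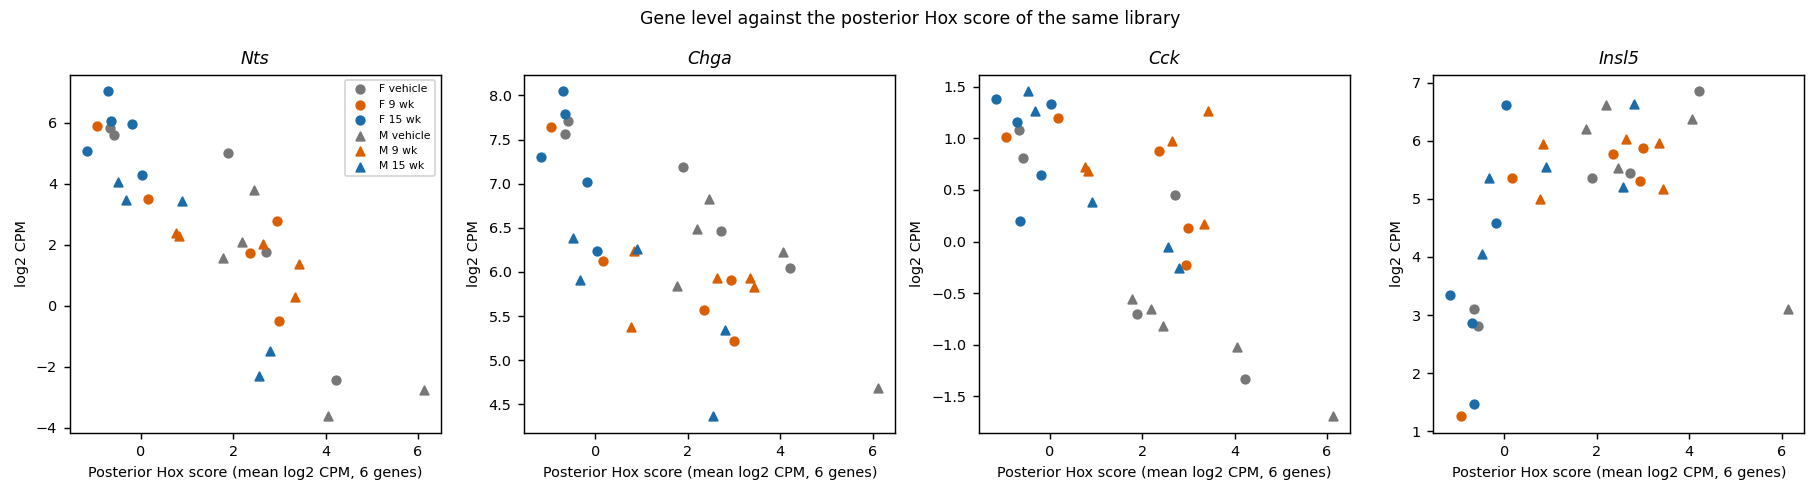
Log2 CPM of *Nts*, *Chga*, *Cck* and *Insl5* in each library against the posterior Hox score of that library (mean log2 CPM of 6 genes; circles are females, triangles males, colours mark treatment). *Nts*, *Chga* and *Cck* fall as the score rises (centred r −0.833, −0.733 and −0.731 over 30 libraries), and *Insl5* tends the other way (0.417, adjusted p = 0.0952 by permutation).

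The wider enteroendocrine programme was read from 5 lists, of which the genes that passed the count filter were counted. Of all tested genes, 5.51% were DEGs that rose and 2.78% DEGs that fell after 9 weeks, 3.46% and 3.89% after 15 weeks, and 0.418% and 1.91% between the times. At an unadjusted p under 0.05 edgeR gave 4720, 5559 and 3846 of the 16261 tested genes in these comparisons. With 7 to 19 genes to a list, counts of 1 to 3 are a description. Of 18 tested transcription factors of the lineage none was a DEG at 9 weeks, 15 weeks or between the times (edgeR; 7, 3 and 2 at an unadjusted p under 0.05). Their median log2 fold changes against vehicle were −0.27 and −0.25. After 15 weeks 3 of them, named after their values were seen, had an adjusted p under 0.05 but a mean FPKM under 1: *Neurog3*, which starts the lineage (log2 fold change 0.999, SE 0.24, adjusted p = 0.00830, edgeR), *Isl1* (−1.05, SE 0.36, adjusted p = 0.0423) and *Etv1* (−0.73, SE 0.21, adjusted p = 0.0221). Of 7 other hormone precursors, 2 rose after 9 weeks. *Tac1*, the precursor of substance P, rose by 1.42 on the log2 scale (SE 0.21, adjusted p = 1.90e-05, edgeR) and *Adm*, that of adrenomedullin, by 0.75 (SE 0.21, adjusted p = 0.0153). After 15 weeks 0 of the 7 were DEGs (1 at an unadjusted p under 0.05, edgeR), and between the times *Tac1* fell by 1.24 (SE 0.20, adjusted p = 0.00346). Both genes are also expressed outside enteroendocrine cells, *Tac1* in enteric neurons and *Adm* in many cell types. *Gast* was at 0 counts in all 30 libraries, and *Gip*, *Gal*, *Ucn3* and *Nmu* were under the filter.

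Of 19 tested genes of granule release and prohormone processing, 3 fell after 9 weeks and 3 after 15 weeks, with medians of −0.29 and −0.34. Of all tested genes 2.78% and 3.89% fell. *Cacna1a*, a calcium channel subunit, fell by 0.97 (SE 0.17, adjusted p = 0.000263, edgeR) and by 1.01 (SE 0.18, adjusted p = 0.000495). *Cplx2*, a regulator of vesicle fusion, fell by 0.50 (SE 0.12, adjusted p = 0.00421, edgeR) and by 0.45 (SE 0.12, adjusted p = 0.0139). *Ddc*, which completes serotonin synthesis, fell after 9 weeks by 0.50 (SE 0.15, adjusted p = 0.0243, edgeR), and *Snap25*, a vesicle fusion protein, fell after 15 weeks by 0.54 (SE 0.18, adjusted p = 0.0401). Between the times 0 of the 19 were DEGs (1 at an unadjusted p under 0.05, edgeR).

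Among 14 tested nutrient and metabolite sensors none was a DEG after 9 weeks (4 at an unadjusted p under 0.05, edgeR, against 4720 of all 16261 tested genes). After 15 weeks the olfactory-type receptor *Olfr78* fell by 1.09 (SE 0.31, adjusted p = 0.0190, edgeR). Of 10 tested hormone receptors and hormone-clearing proteins 3 fell at each time, with medians of −0.70 and −0.82. Of all tested genes 2.78% fell after 9 weeks and 3.89% after 15 weeks. *Npy1r*, a receptor for peptide YY, fell by 1.10 (SE 0.35, adjusted p = 0.0306, edgeR) and 1.24 (SE 0.35, adjusted p = 0.0189). *Dpp4*, which cleaves glucagon-like peptides, fell by 0.51 (SE 0.11, adjusted p = 0.00244, edgeR) and 0.59 (SE 0.11, adjusted p = 0.00149). *Sstr1*, a somatostatin receptor, fell after 9 weeks by 1.34 (SE 0.29, adjusted p = 0.00185, edgeR), and *Slc6a4*, the serotonin transporter, fell after 15 weeks by 1.47 (SE 0.37, adjusted p = 0.00971). Of the receptors, 11 were under the filter, among them *Glp1r*, *Cckar*, *Cckbr*, *Ntsr1* and *Rxfp4*, the receptors for glucagon-like peptide, cholecystokinin, neurotensin and insulin-like peptide 5.

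Averaged over treatments, where 2.04% of all tested genes were lower and 1.27% higher in males, 3 of the 19 granule genes were lower, named after their values were seen: *Pcsk1* (log2 fold change −1.10, SE 0.22, adjusted p = 0.00750, edgeR), the convertase that cuts proglucagon in L cells, *Ptprn2* (−0.69, SE 0.19, adjusted p = 0.0282) and *Resp18* (−0.65, SE 0.17, adjusted p = 0.0219). *Pam*, which amidates peptide hormones, was higher in males (0.43, SE 0.12, adjusted p = 0.0379, edgeR). Of the other hormone precursors *Iapp*, that of amylin, was lower in males (−2.75, SE 0.63, adjusted p = 0.0136, edgeR), as was the fatty acid receptor *Ffar4* among the sensors (−0.72, SE 0.21, adjusted p = 0.0429). The receptor *Npy1r* was higher in males (1.26, SE 0.29, adjusted p = 0.0137, edgeR). No transcription factor of the 18 was a DEG between the sexes (4 at an unadjusted p under 0.05, edgeR, against 3692 of all 16261 tested genes).

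Markers of other cell types were counted beside these genes. After 9 weeks, when 5.51% of all tested genes rose and 2.78% fell, 6 of 9 tested neutrophil genes, 5 of 10 macrophage genes and 3 of 8 mast cell genes rose, 1 of 10 goblet and 1 of 10 colonocyte genes rose, 1 colonocyte gene fell, and 0 of 14 mesenchyme, 0 of 10 smooth muscle and 0 of 10 tuft cell genes were DEGs (edgeR). After 15 weeks, when 3.46% rose and 3.89% fell, 3 neutrophil, 2 mast cell and 1 macrophage gene were higher, while 7 of 10 smooth muscle and 6 of 14 mesenchyme genes were lower, and 1 goblet and 1 colonocyte gene were higher. From 9 to 15 weeks 5 neutrophil, 4 mesenchyme, 3 macrophage and 1 mast cell gene fell (edgeR). Of enteric glia genes 0 of 2 tested were DEGs at either time. Mast cells of the mouse also make serotonin through *Tph1*, whose own log2 fold changes at these times were −0.25 and −0.06. Of 3 tested pancreatic islet genes 0 were DEGs at either time, and *Ins1* and *Ins2* were at 0 counts in all libraries. The part of these cell types in the values above was not tested.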

How the data were processed

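RNA of 30 mouse colon epithelial scrapes (6 groups of 5, 1 mouse per library) was sequenced from stranded poly-A libraries. The submitters' processing notes name bcl2fastq 2.20.0.422, CASAVA, Trim Galore, STAR, featureCounts, StringTie and the build mm10. The authors deposited a table of featureCounts counts per gene for 46078 genes, and FPKM, TPM and mean coverage per gene from StringTie. The deposited coverage was not used in any result. Duplicate reads were not removed by the authors, so counts are not independent molecules, and counting limits cover counting error only.

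Counts were fitted for all 30 libraries with edgeR 4.0.16 (R 4.3.3; filterByExpr, TMM, quasi-likelihood test, 1 mean per group), and all p-values were adjusted over the 16261 tested genes. The common biological coefficient of variation was 0.319. A DEG needed an adjusted p under 0.05, a log2 fold change beyond 0.4 and a mean deposited FPKM of at least 1 in 1 compared arm. DESeq2 1.42.0, limma voom (limma 3.58.1), other filters and scalings, marker scores as covariates, a replicate block and leaving out each library were alternatives. The comparison of the sexes averaged over treatments, with its alternatives, and the correlations with marker scores were added after seeing the data. Log2 CPM used a prior count of 2. Ratios to *Chga* had 0.5 added to each count and were tested by exact permutation within sex over 63504 splits, and correlations by 100000 permutations within groups (SciPy 1.17.1). The fits were tested on simulated data.

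The 10 genes and all gene lists were chosen with earlier results of these data known. All 10 genes were named in comparisons averaged over the sexes, and elsewhere those called; of each enteroendocrine list up to 4 DEGs with the smallest adjusted p at 9 or 15 weeks were named. The 3 genes most like *Chga*, *Pyy* and *Tph1* were taken by Pearson r. Promoters came from RefSeq (GRCm38.p6).

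No 2 libraries of a group agreed within sampling noise: chi-square per degree of freedom was at least 14.4 in all 60 pairs, and Spearman's rho was 0.941 to 0.994. No label gave a batch. The labels give 1 mouse per library, so that p-values measure the spread between mice.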

Additional observations from a re-analysis of the deposited data

Results flagged for a closer look

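In 60 sets of 5 libraries (10 genes in 6 groups), 4 held a library whose gap to the nearest other one, over the range of its group, exceeded Dixon's critical value of 0.71. Chance alone flags about 1 in 20 such sets. Female 9-week replicate 5 accounted for 3 of them. Its log2 CPM was 8.158 for *Chgb*, where the median of its group was 6.82, and 5.8 for *Tph1*, where the median was 3.88. For *Insl5* it stood at 1.259 against a median of 5.363. This library also had the lowest posterior Hox score of its group, −0.95, and leaving it out made *Chga* a DEG after 9 weeks. The fourth was female vehicle replicate 1, at 0.5055 for *Neurod1* against a median of 1.771.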

How the results depend on the processing

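The number of the 10 genes called moved by more than 1.5 times under these alternatives. With the posterior Hox score as a covariate it was 2 after 9 weeks, 0 after 15 weeks, 0 in males after 15 weeks and 0 between the sexes averaged over treatments. With the mesenchyme score it was 0 between the sexes averaged over treatments and 1 between the sexes after 15 weeks, where DESeq2 gave 2. With only the compared libraries it was 0 in males after 15 weeks. Leaving out 1 library gave 1 to 2 after 9 weeks, 0 to 1 between 15 and 9 weeks, in females after 9 weeks, between vehicle-treated sexes and between the sexes after 15 weeks, 2 to 6 between the sexes averaged over treatments, and 1 to 3 ratios to *Chga* (3 with that of *Gcg* after 9 weeks, without female 9-week replicate 5). Female 9-week replicate 5 gave the 2 after 9 weeks and the 2 between the sexes, and female vehicle replicate 2 gave 3 there. The cause was not tested, and the calls over all tested genes under these alternatives are not given here.

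Some log2 fold changes that were not called turned in sign. After 9 weeks the mesenchyme score gave 0.18 for *Gcg*, 0.14 for *Tph1* and 0.59 for *Nts*, limma voom 0.10 for *Gcg*, 0.10 for *Insl5* and 0.96 for *Nts*, and the Hox score 0.11 for *Insl5*. After 15 weeks the mesenchyme score gave −0.095 for *Gcg*, 0.024 for *Insl5* and −0.15 for *Neurod1*, the Hox score −0.10, 0.46 and −0.25 for these and −0.90 for *Nts*, and limma voom 0.11 for *Tph1*. Between 15 and 9 weeks the mesenchyme score gave −0.0073 for *Chga*, −0.23 for *Chgb*, −0.27 for *Gcg*, 0.54 for *Insl5*, −0.48 for *Tph1*, −0.041 for *Neurod1* and −0.0285 for *Cck*. The Hox score gave −0.054, −0.18, −0.023, 0.36 and −0.36 for the first 5 of these, −0.092 for *Sst*, −0.44 for *Cck* and −0.089 for *Nts*, and limma voom gave −0.048 for *Pyy*. Without 1 library the values ran after 9 weeks from −0.19 to 0.14 for *Gcg*, −0.34 to 0.20 for *Insl5* and −1.31 to 0.10 for *Nts*, after 15 weeks from −0.14 to 0.084 for *Chga*, −0.024 to 0.30 for *Gcg*, −0.23 to 0.028 for *Sst*, −0.19 to 0.066 for *Tph1* and −0.086 to 0.14 for *Neurod1*, and between the times from −0.071 to 0.10 for *Pyy*.

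No sign was seen that replicate numbers pair the samples: over 75 same-numbered pairs across groups the median correlation of their deviations was −0.03, and 12 were over 0.1. Over 300 pairs with other numbers the median was 0.007, and 95 were over 0.1. Pairing within only some of the groups was not tested. With the replicate block the number of the 10 genes called was as without it in all 13 comparisons, *Cck* had 1.15 after 9 weeks (adjusted p = 0.0182, edgeR) and 1.27 after 15 weeks (adjusted p = 0.0184), and the signs of *Chga* (0.025) and *Tph1* (0.064) after 15 weeks and of *Pyy* (−0.035) between the times turned. Between the sexes *Sst* was gained (adjusted p = 0.0350, edgeR) and *Nts* lost (−2.59, adjusted p = 0.0527). No FPKM minimum, no fold threshold, another scaling (RLE) and no filter on low counts moved none of these counts. Depth limits *Cck* and *Nts*, which fell to 5 and 0 counts in single libraries.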
